A study of Danio rerio with 6 samples.

Results

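The regions described here are open chromatin regions of the zebrafish embryo that lie in high local background, which is the average coverage of the surrounding sequence in the same library. They are 4349 of the 85003 regions obtained by merging ATAC-seq peaks of 6 samples that shared at least 1 base. A region was chosen by 4 conditions. It lay on chromosomes 1 to 25, without chromosome 4 from base 27000000 on, and 3 or more of the 6 lists held a peak there. The mean local background over its peaks was 2 or more fragments covering a base, and no list held a peak of 500 bases or more in it. The background of each peak was derived from its deposited values as (height + 1) / fold enrichment - 1, where height is the pileup at the summit, that is how many fragments cover that base. Of the regions that met the other conditions, 4349 of 50248 (8.66%) reached the limit of 2, and the other 45899 are called regions of lower background. The 24644 peaks within the chosen regions were 7.84% of all 314307 peaks.

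The exposed embryos (Ezh2i, 3 samples) were wild-type AB zebrafish kept in 5 μM PF-06726304 acetate, an inhibitor of the methyltransferase Ezh2, and the control embryos (control, 3 samples) were kept in 0.05% DMSO alone. Both were kept as groups of many embryos, in triplicate, from about the 2-cell stage until collection at 50% epiboly, 5.5 hours post fertilization. Nuclei came from whole deyolked embryos, so a fall in the share of cells with an open region and a fall in openness per cell cannot be told apart, and the level of the histone mark in these samples was not analysed here. The libraries held 6404036, 6363712 and 6444742 fragments in Ezh2i samples 1, 2 and 3, and 5894731, 6419574 and 6877909 fragments in controls 1, 2 and 3, and p-values measure the spread between these samples only.

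In ATAC-seq the transposase Tn5 inserts adapters where DNA is not covered by nucleosomes, so that promoters, enhancers and other regulatory sequence give peaks of coverage. Ezh2 is the catalytic subunit of the Polycomb complex PRC2 and methylates lysine 27 of histone H3. This methylation is a mark of silenced developmental genes that spreads over domains much wider than a single promoter. The peak caller MACS2 scores each peak against the coverage it expects there, and without a control library it takes this expectation from the sample itself, from the wider neighbourhood of the peak or from the genome average, whichever is higher. A peak in a neighbourhood of high coverage therefore has to be taller to be called. Positions are those of GRCz11, the build of the files, and no annotation of that build was used here, so no region is placed in a gene.

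The selection rested on the background, so its level in these regions is a description. Its median was 2.65 fragments per base in the chosen regions, with quartiles of 2.26 and 3.48 and a highest value of 17.6, against a median of 0.545 in regions of lower background. The lowest background of any peak was 0.340 to 0.385 fragments per base across the 6 lists, which is the floor set by the genome average. Of the 4349 regions, 2745 had a mean background from 2 to 3, 1266 from 3 to 5, 317 from 5 to 10 and 21 of 10 or more. Just inside the limit lay chr19:28785015-28785173 and chr4:4079163-4079452, both at 2.00, and just outside lay chr2:52070036-52070292 and chr24:3407429-3407653, both at 1.999. The first of these had a background of 2.39, 2.52 and 2.29 in Ezh2i samples and 1.63, 1.40 and 1.78 in controls, so the mean over lists placed it inside while the exposures lay on opposite sides of the limit.

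The background includes the fragments of the peaks themselves. The area of a peak was taken as its height multiplied by its length, which overstates it because a peak falls off on both sides, and areas were summed over all peaks of a list with a summit within 5000 bases. The summed area was 119% of the background in the median chosen region and 60.7% in the median region of lower background. It stayed under 50% of the background in 72 chosen regions (1.66%), against 17812 regions of lower background (38.8%). The region's own peak accounted for 30.8% in the median chosen region and 37.2% in the other regions. By this upper estimate, called peaks could make up the larger part of the background in all but those 72 chosen regions.

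The chosen regions were tall and a little longer than the others. Their median height was 47.3 fragments, with quartiles of 28.7 and 82.7, and that of regions of lower background was 15.0 fragments. Their median length was 223 bases against 179 bases. The own peak is part of the background that chose the regions, so greater height and length are in part set by the rule. Heights of called peaks have a lower bound that grows with the background, and the lowest peak of any list had 5 fragments where the background was under 0.5, 11 fragments between 2 and 3, 18 fragments between 5 and 10, and 33 fragments at 10 or more. The fold enrichment, which divides by the background, had a median of 11.9 in the chosen regions and 9.73 in the others. Among the others it was 8.45 at a background under 0.5 and 13.7 at 1 to 2, the latter above the median of the chosen regions. Within the chosen regions it was 12.9 at a background of 2 to 3, 11.6 at 3 to 5, 8.42 at 5 to 10 and 7.20 at 10 or more, so height grew less than background did.

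**Figure D1:**
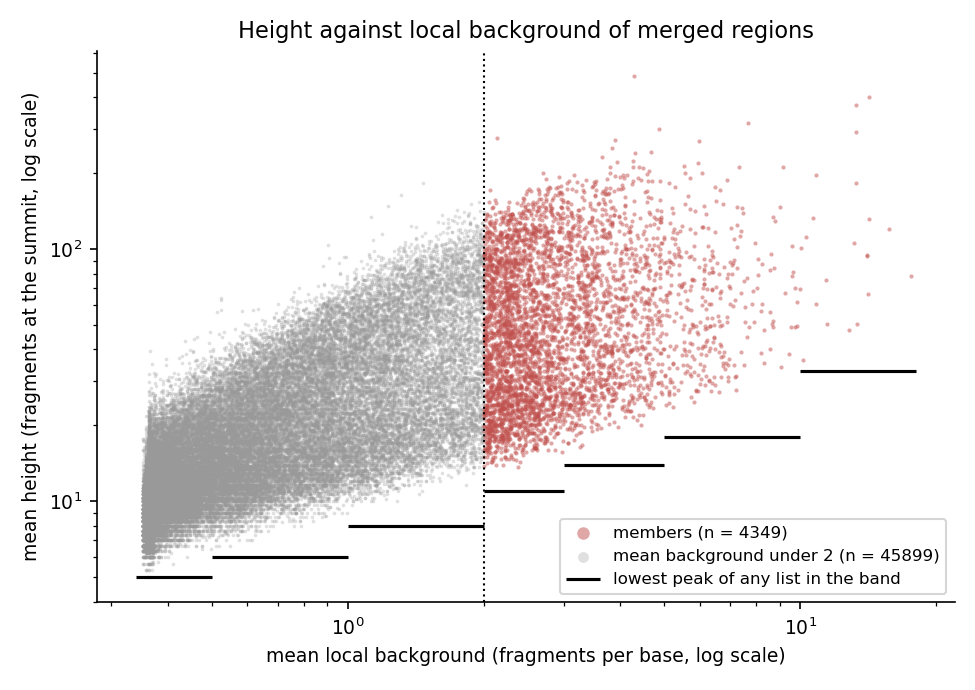
Mean height (fragments at the summit) against mean local background (fragments per base), both on log scales, for the 4349 chosen regions (red) and the 45899 regions of lower background (grey), with the limit of 2 as a dotted line. Black bars give the lowest peak of any list in each band of background, which lies at 11 fragments from 2 to 3 and at 33 fragments from 10 on.

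Both sets of regions were chosen to have a peak in 3 or more of the 6 lists, so presence in 3 lists was fixed in advance. Peaks of all 6 lists met at 3513 chosen regions (80.8%), of 5 lists at 320, of 4 at 229 and of 3 at 287. Among regions of lower background 55.4% had a peak in all 6 lists, with 36.1% at a background under 0.5 and 77.6% at 1 to 2. Where each list had a single peak, the 6 summits of a chosen region spread over a median of 35 bases (3436 regions), against 40 bases in the others. The spread of log2 heights between replicates, as the median SD within an exposure, was 0.188 in the chosen regions and 0.270 in the others with 6 peaks. By band of mean height the values were 0.272 (48 regions) and 0.318 (10660 regions) between 5 and 20 fragments, and 0.252 and 0.267 between 20 and 40 fragments. They were 0.197 and 0.198 between 40 and 80 fragments, and 0.137 and 0.155 from 80 fragments on. Heights were not alike within the first and last bands. Mean heights ran from 13.7 to 486 fragments in the chosen regions and from 5 to 182 fragments in the others.

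Few of these regions stood alone. Peaks within 5000 bases add to the background that chose the regions, so the rule itself favours regions with neighbours. The median number of other regions found in 3 or more lists within 5000 bases was 2 for a chosen region and 0 for a region of lower background, and 354 chosen regions (8.14%) had none, against 26746 of the others (58.3%). Joined where they lay within 10000 bases of each other, the chosen regions formed 1761 stretches, of which 512 held 1 region. Another 142 stretches held 5 regions or more and together 914 regions (21.0%), and 9 held 10 or more. Within a stretch, summits of adjacent chosen regions were a median of 1429 bases apart, with quartiles of 746 and 2661 bases. Such neighbours share a large part of one background window, so they are not independent of each other.

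The regions were spread over all 25 chromosomes without an even share. Chromosome 7 held the most, 377 of its 3051 eligible regions (12.4%), followed in share by chromosome 3 (10.9%), chromosome 25 (10.8%) and chromosome 10 (10.5%), while chromosome 9 had the lowest share (5.34%). Within 100000 bases of the chromosome start or of the last peak on the chromosome lay 161 chosen regions (3.70%), against 302 regions of lower background (0.658%). Of the 5 regions of highest background, 4 were among these.

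All 5 lay on chromosome 7, the 4 near an end in the first 10140 bases of its assembly. The region chr7:5182-5269 had the highest mean, 17.6 fragments per base, and a peak in 3 lists only, with a height of 76 fragments in Ezh2i sample 1 and of 73 and 86 fragments in controls 1 and 2. Next to it, chr7:5671-5890 reached 487, 285 and 350 fragments in Ezh2i samples and 411, 501 and 372 fragments in controls, over a background of 17.7, 9.63 and 11.2 against 15.8, 19.2 and 11.8 fragments per base. Ezh2i sample 1 and controls 1 and 2 were high in background there and the other samples low, so the exposures overlapped. The 3 lists with a peak at chr7:5182-5269 were these high ones, with backgrounds of 17.7, 15.9 and 19.2 at that region. The first rank of chr7:5182-5269 thus rests on a mean without the low samples. At chr7:6387-6655 the heights were 189, 85 and 97 fragments in Ezh2i samples and 123, 192 and 100 fragments in controls. At chr7:10041-10140 no peak was called in Ezh2i sample 2, and the heights were 74 and 58 fragments in Ezh2i samples 1 and 3 and 79, 70 and 51 fragments in controls.

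The remaining one, chr7:53014954-53015228, lay far from the chromosome start and had another order of samples. Its background was 11.7, 19.9 and 12.0 fragments per base in Ezh2i samples, against 14.8, 17.7 and 18.2 in controls, with Ezh2i samples 1 and 3 below every control and Ezh2i sample 2 above every control. Its heights were 94, 162 and 99 fragments in Ezh2i samples and 92, 137 and 134 fragments in controls, and its log2 difference (Ezh2i minus control) was -0.093 with a standard error of 0.29.

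The 3 tallest regions were chr2:14676090-14676300, the already named chr7:5671-5890, and chr7:7607-7802. The tallest, on chromosome 2, had 460, 526 and 439 fragments in Ezh2i samples and 483, 547 and 460 fragments in controls. Its background of 4.01, 4.65 and 3.72 in Ezh2i samples and 4.36, 4.87 and 4.08 in controls was far below that on chromosome 7, and its mean fold enrichment of 92.2 was the highest of all chosen regions. At chr7:7607-7802 the heights were 419, 275 and 302 fragments in Ezh2i samples and 445, 450 and 333 fragments in controls. The log2 differences of these regions were -0.024, 0.033 and -0.077, within their standard errors of 0.17, 0.21 and 0.19.

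Between exposures, the local background of the chosen regions was scaled to 1000000 fragments of each library (scaled background) and compared over the 3513 with a peak in all 6 lists. The sample medians were 0.433, 0.444 and 0.429 in Ezh2i samples and 0.422, 0.415 and 0.377 in controls, with means of 0.435 ± 0.00785 and 0.405 ± 0.0244 (SD, n = 3 each). All Ezh2i samples were above all controls, by little for controls 1 and 2 and by more for control 3. Since the background chose the regions, this gets no test. Over the 4291 regions with a peak in each exposure, the median log2 difference in background was 0.10, and without control 3 it was 0.047.

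Control 3 had the lowest background of the 6 samples at 2158 of the 3513 regions (61.4%), and Ezh2i sample 2 the highest at 1315 (37.4%). The Ezh2i samples all exceeded the controls in background at 653 regions (18.6%) and all lay below them at 34 (0.968%). Over all 30071 regions of the genome with 6 peaks, the shares were 10.8% and 3.58%. Among the regions of lower background alone they were 9.79% and 4.07%, and among those at a background of 1 to 2 they were 15.5% and 1.76%. The background chose the regions, so nothing is read from these shares.

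**Figure D2:**
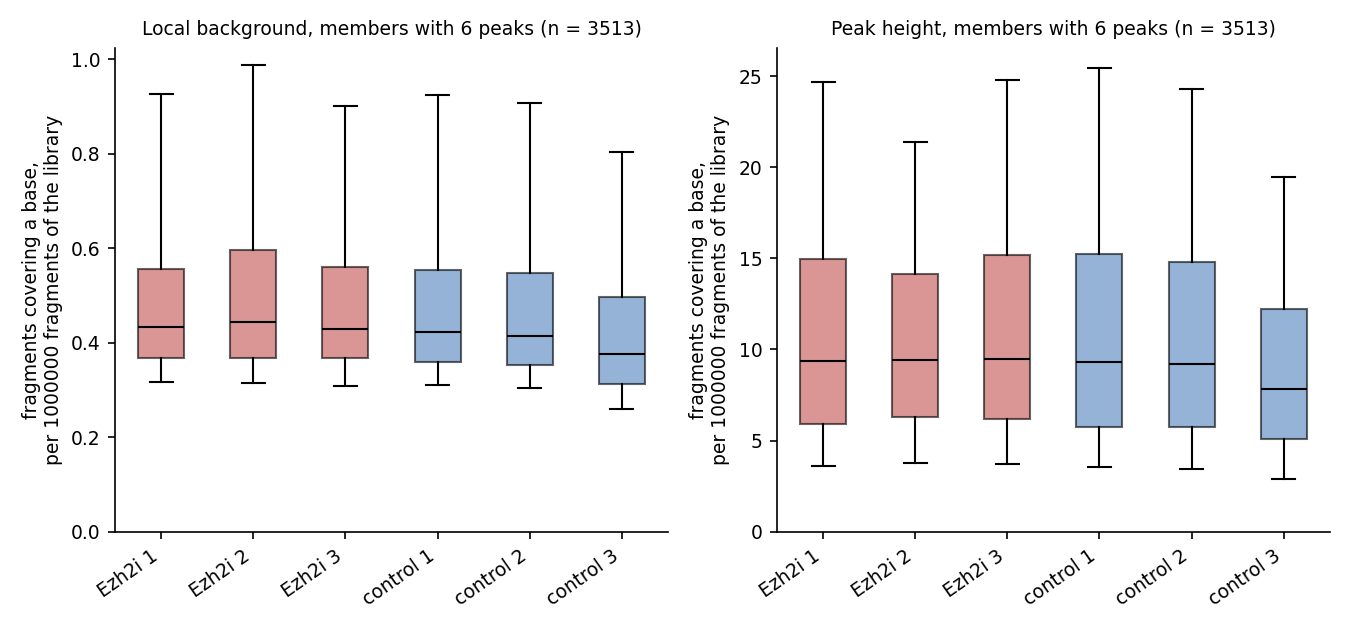
Local background (left) and peak height (right) of the 3513 chosen regions with a peak in all 6 lists, as fragments covering a base per 1000000 fragments of the library, by sample, with the Ezh2i samples in red and the controls in blue. Lines are medians, boxes quartiles and whiskers the 5th and 95th percentiles, and control 3 is the lowest sample in both plots, at medians of 0.377 and 7.85.

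Peak heights gave a like picture, but the own peak is part of the background that chose the regions, so they are no separate measurement. Scaled in the same way (scaled height), median heights were 9.37, 9.43 and 9.47 fragments in Ezh2i samples and 9.33, 9.19 and 7.85 in controls, with means of 9.42 ± 0.0484 and 8.79 ± 0.817 (SD, n = 3 each). The exposures did not overlap, yet controls 1 and 2 were close to the Ezh2i samples and control 3 stood apart. In regions of lower background with 6 peaks the medians were 3.75, 3.46 and 3.88 in Ezh2i samples and 3.73, 3.43 and 2.91 in controls. With scaled heights the median log2 difference of the chosen regions was 0.099, against 0.12 over all regions. Without control 3 it was 0.0076 in the chosen regions and 0.020 over all regions.

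Whether single regions opened or closed under Ezh2i was tested with limma on quantile-normalized log2 heights of all 30071 regions with 6 peaks, which removes differences that run through a whole library. None of the 3513 chosen regions in that fit passed a Benjamini-Hochberg adjusted p of 0.05, as was the case over all regions (0%). The smallest adjusted p was 0.746 in limma. Summit heights are not read counts, so this result does not stand for the study's test on read counts. The 836 chosen regions without a peak in some list were not in this fit. At an unadjusted p under 0.05 in limma, 58 chosen regions were higher in Ezh2i samples (1.65%) and 44 lower (1.25%). Of all regions fitted, 3.19% were higher and 3.05% lower. The fit drew each variance towards a value common to all regions, while the chosen regions varied less between replicates. The lower shares are therefore not read as less change in the chosen regions. Normalized heights did not overlap between exposures at 260 chosen regions higher in Ezh2i samples (7.40%) and 191 lower (5.44%), against 5.69% and 5.39% of all regions, so these shares were near the background. The median log2 difference was 0.0062 in the chosen regions and -0.0012 over all regions. The differences were also narrow, as 95% of the chosen regions lay within 0.40 of 0 and 95% of all regions within 0.52, and no chosen region exceeded 1.

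The 5 chosen regions with the smallest p among those higher in Ezh2i samples lay on 5 chromosomes. The first, chr17:41463690-41463928, had 32, 27 and 43 fragments in Ezh2i samples and 22, 14 and 13 fragments in controls, with a log2 difference of 0.93 ± 0.24 (standard error, adjusted p = 0.746 in limma). All Ezh2i samples were above all controls there, as they were at the other 4. At chr7:40993505-40993655 the heights were 36, 40 and 36 fragments in Ezh2i samples and 21, 22 and 19 fragments in controls, a log2 difference of 0.70. At chr2:47432616-47432780 they were 51, 44 and 52 fragments in Ezh2i samples and 26, 32 and 26 fragments in controls, a log2 difference of 0.68. The Ezh2i and control heights were thus set apart by more than the range within either exposure at both regions, while neither passed the adjusted threshold (adjusted p = 0.746 in limma).

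The remaining regions of this kind had mean heights of 21.2 fragments (chromosome 12) and 46.2 fragments (chromosome 20). At chr12:42439810-42439964 the heights were 29, 26 and 26 fragments in Ezh2i samples and 19, 14 and 13 fragments in controls, and at chr20:42347758-42348026 they were 56, 61 and 56 fragments against 39, 31 and 34 fragments in controls. The background was higher in Ezh2i samples at these 5 regions as well, by a log2 difference of the scaled background between 0.37 (chr20:42347758-42348026) and 0.62 (chr7:40993505-40993655). The own peak is part of the background, so this is no separate measurement. The region on chromosome 7 had no other chosen region within 10000 bases, whereas the one on chromosome 2 belonged to a stretch of 7.

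The 5 with the smallest p among those lower in Ezh2i samples were led by chr13:19117389-19117612. It had 34, 45 and 34 fragments in Ezh2i samples and 59, 65 and 67 fragments in controls, with a log2 difference of -0.89 ± 0.21 (standard error, adjusted p = 0.746 in limma). Its background was 3.11, 5.24 and 3.16 in Ezh2i samples and 4.28, 5.54 and 7.65 in controls, so that with fold enrichment in place of height the log2 difference shrank to -0.26. At chr11:18614203-18614341 the heights were 17, 26 and 35 fragments in Ezh2i samples and 49, 45 and 41 fragments in controls, with the largest log2 difference of these 10 regions in size, -0.996. Its background overlapped between exposures, at 2.27, 3.11 and 2.58 in Ezh2i samples and 2.66, 3.03 and 3.28 in controls.

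The other 3 had log2 differences of smaller size than the region on chromosome 13, and their adjusted p was 0.746 in limma as well. At chr3:62285017-62285216 the heights were 27, 22 and 23 fragments in Ezh2i samples and 33, 32 and 40 fragments in controls. At chr5:35200726-35200902 they were 14, 19 and 21 fragments in Ezh2i samples and 31, 34 and 20 fragments in controls, so that control 3 lay within the range of the Ezh2i samples. At chr11:18979937-18980138 they were 16, 25 and 18 fragments in Ezh2i samples and 32, 27 and 29 fragments in controls. The log2 differences of these regions were -0.68, -0.79 and -0.76, and the exposures were set apart by 2 fragments at the region on chromosome 11 that starts at 18979937.

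**Figure D3:**
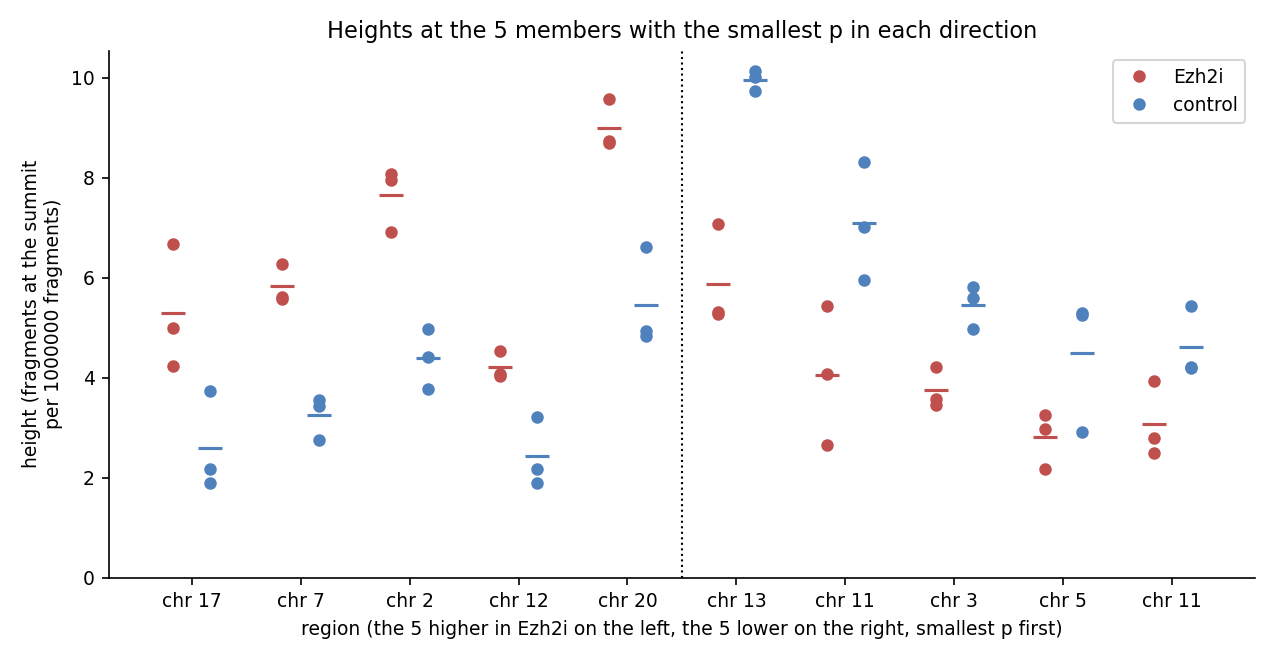
Heights in fragments at the summit per 1000000 fragments for the chosen regions with the smallest p in each direction, 5 higher in Ezh2i samples on the left and 5 lower on the right. Red points are the 3 Ezh2i samples and blue points the 3 controls, bars are means, and the exposures overlap at the region on chromosome 5 alone.

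The differences were also described by band of background, with nothing read from the background that defines the bands. In the chosen regions with 6 peaks the median log2 difference in scaled background was 0.10 at a background of 2 to 3 (2205 regions), 0.10 at 3 to 5 (1033 regions), 0.10 at 5 to 10 (258 regions) and -0.26 at 10 or more (17 regions). Without control 3 these medians were 0.047, 0.051, -0.0087 and -0.27. Scaled heights followed, with 0.11, 0.097, 0.044 and -0.20 for all samples and 0.015, 0.0076, -0.035 and -0.28 without control 3. The 17 regions of the last band came from 6 stretches, with 6 of them at the start of chromosome 7, 4 in the stretch that starts at base 53012275 of the same chromosome, 3 in one that starts at 5903835 and 2 on chromosome 10, so they are few independent values. The stretch that starts at 5903835 had a median log2 difference in background of 0.15, opposite in sign to that of the band.

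**Figure D4:**
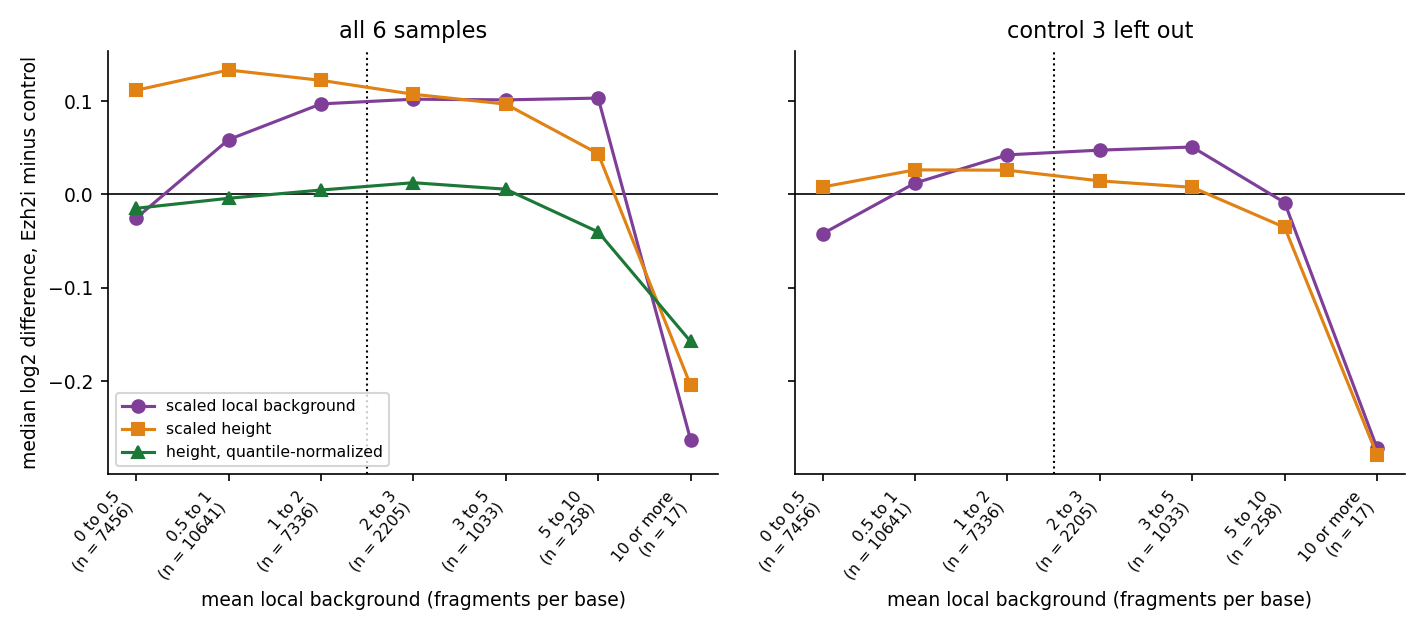
Median log2 difference, Ezh2i minus control, by band of mean local background for regions with a peak in all 6 lists, with all samples (left) and with control 3 left out (right), for the scaled background (purple), scaled height (orange) and quantile-normalized height (green, left plot alone). The chosen regions lie right of the dotted line, and the medians of the last band of 17 regions are -0.26, -0.20 and -0.16 on the left.

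The longest stretches were not spread evenly over the genome either. The stretch with the most chosen regions ran over chr25:35101625-35154055, with 28 regions in 52431 bases and a mean background of 6.05 fragments per base. The next, chr25:36310284-36349647, held 21 regions at a mean background of 5.36, and chr10:16789110-16826028 held 19 at 5.67. Their peaks had median heights of 41.4, 45.7 and 38.3 fragments. The background of single regions ran from 2.37 to 8.59, from 2.435 to 7.62 and from 3.015 to 10.84 in these stretches.

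On chromosome 25 the exposures overlapped. In the stretch of 28 regions, 21 had 6 peaks, and the median scaled background was 1.04, 1.04 and 0.907 in Ezh2i samples and 1.12, 1.00 and 0.766 in controls. Of these 21, 4 were higher and 17 lower in Ezh2i samples in the limma fit, with log2 differences from -0.38 to 0.17 and no p under 0.0854. In the stretch of 21 regions the median scaled background was 0.930, 0.828 and 0.734 in Ezh2i samples and 0.870, 0.871 and 0.666 in controls, and 5 of 19 fitted regions were higher and 14 lower. Control 3 was the lowest sample in both stretches. The median log2 difference in scaled background was 0.073 and 0.057 in these stretches, opposite in sign to most of the fitted heights. Neighbouring regions are not independent of each other, so nothing is read from the counts by direction.

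The stretch on chromosome 10 divided the samples in another way. All 14 of its regions with 6 peaks were lower in Ezh2i samples in the limma fit, by a median log2 difference of -0.33 and with a smallest p of 0.0132 (adjusted p = 0.746 at the least in limma). The median heights were 38.5, 71 and 45.5 fragments in Ezh2i samples and 56, 67 and 58 fragments in controls. The median scaled background was 0.537, 0.995 and 0.495 in Ezh2i samples and 0.803, 0.862 and 0.728 in controls. Ezh2i samples 1 and 3 were below all controls in background at 14 of the 14 regions, whereas Ezh2i sample 2 was above all controls at 11 of them, so the 3 Ezh2i samples did not move together.

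**Figure D5:**
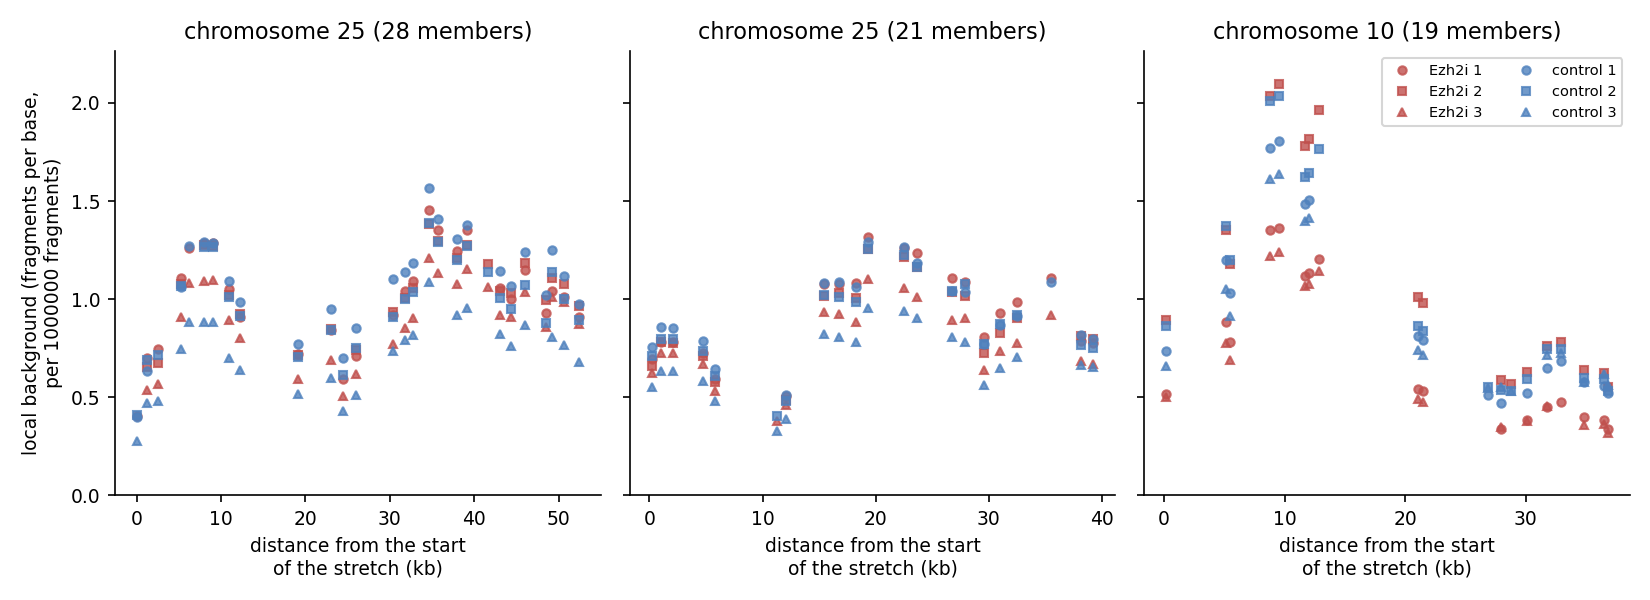
Scaled local background (fragments per base, to 1000000 fragments of the library) at each chosen region of the 3 stretches with the most regions, against distance from the start of the stretch in kilobases, with Ezh2i samples in red and controls in blue. Symbols mark replicates, and in the stretch of 19 regions on chromosome 10 (right) Ezh2i samples 1 and 3 lie below the controls, with medians of 0.537 and 0.495, while Ezh2i sample 2 lies at 0.995.

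At a single region the highest of the 6 scaled backgrounds was a median of 1.34 times the lowest over the 3513 regions, and it exceeded 2 times the lowest at 32 of them, with Ezh2i sample 2 the highest at 14 of the 32. Among the 57 stretches with at least 5 regions with 6 peaks, the highest sample had a median of 1.43 times the background of the lowest, and the ratio exceeded 1.5 in 17. Of these 17, singled out after their values were seen, 6 had medians in the order of the stretch on chromosome 10. In that order Ezh2i samples 1 and 3 lay below every control and Ezh2i sample 2 above every control. A further 3 had all Ezh2i samples above all controls, and 8 had another order. Control 3 was the lowest sample in 7 of the 17. Over all 57 stretches, all Ezh2i samples lay above all controls in 12, all controls lay above in 0, and the exposures overlapped in 45. The background chose the regions, so nothing is read from these counts. The ratio was highest on chromosome 10, at 2.01. Among the 6, ratios of 1.98, 1.86 and 1.74 were found at chr7:64599007-64611110, chr3:55353848-55367141 and chr7:53012275-53020409. At all 17 fitted regions of these 3 stretches, Ezh2i samples 1 and 3 lay below every control in background and Ezh2i sample 2 above every control. At the stretch on chromosome 3 the median heights were 34, 61 and 33 fragments in Ezh2i samples and 51, 56 and 50 fragments in controls, and at the one that starts at 64599007 they were 41, 90 and 42 against 52, 60 and 70 fragments in controls.

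The start of chromosome 7 had a further order, with a ratio of 1.99. Over chr7:2146-10140 the median scaled background was 2.56, 1.42 and 1.62 in Ezh2i samples and 2.50, 2.82 and 1.59 in controls. Ezh2i sample 1 went with controls 1 and 2, and Ezh2i samples 2 and 3 with control 3, so the division ran across the exposures. Over chr13:14969734-14982944, with a ratio of 1.68, the medians were 0.448, 0.584 and 0.515 in Ezh2i samples and 0.439, 0.437 and 0.348 in controls, so all Ezh2i samples were above all controls there.

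Presence of a peak was counted last, since the rule uses it in part. A peak was called at 4138, 4175 and 4171 of the 4349 regions in Ezh2i samples 1, 2 and 3, and at 3937, 4010 and 4024 in controls 1, 2 and 3. These were 95.1%, 96.0% and 95.9% in Ezh2i samples and 90.5%, 92.2% and 92.5% in controls. In regions of lower background the shares overlapped, with 88.7%, 82.4% and 90.1% in Ezh2i samples and 84.0%, 85.0% and 80.1% in controls. Of the 320 chosen regions that lacked a peak in 1 list, a control lacked it at 231 and an Ezh2i sample at 89, against 4237 and 2697 regions of lower background. The mean background was taken over called peaks alone, and it tended to be higher in Ezh2i samples. The limit of 2 can thus favour regions that lack a control peak, so nothing is read from these counts of presence. All 3 Ezh2i samples and no control had a peak at 53 chosen regions (1.22%), and all 3 controls and no Ezh2i sample at 5 (0.115%), where the shares over all 52189 regions found in 3 or more lists were 1.35% and 0.561%. The background of a region with peaks in Ezh2i samples alone was measured in Ezh2i lists alone, where it tended to be higher. How far the limit of 2 thereby favours such regions over the reverse was not tested. Without control 3, which was tried after the data were seen, the counts were 94 and 5 in the chosen regions and 1123 and 277 in regions of lower background, where all samples gave 616 and 277. Leaving out a control can only raise the first count. It cannot change the second, because the rule asks for peaks in 3 lists, so nothing is read from this change. At a background of 3 or more, a limit also chosen after seeing the data, the counts were 19 and 2 of 1604 regions. The shares over all regions do not depend on this limit and remain 1.35% and 0.561%. With every list cut to the length of the shortest, keeping its strongest peaks, the counts in the chosen regions were 29 and 7. The same cut gave 382 and 439 in regions of lower background. Shares over all regions were not computed under this cut, so nothing is read from its counts.

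The tallest of the 53 was chr20:10111176-10111293, with 37, 33 and 34 fragments in Ezh2i samples 1, 2 and 3. It was followed by chr21:5005829-5005953 with 30, 27 and 37 fragments, chr3:5963527-5963650 with 33, 28 and 31 fragments, chr23:3756638-3756767 with 31, 31 and 29 fragments and chr8:16258656-16258772 with 38, 23 and 30 fragments. The highest pileup that stays uncalled in controls at the background measured in the Ezh2i lists was 14 to 15 fragments at chr20:10111176-10111293 and 18 to 20 fragments at chr23:3756638-3756767. Since a called peak lies above such a limit in its own list, the heights of the 53 regions exceed it by their selection. A peak must also reach a minimum length, and its shape in the controls was not analysed here.

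The 5 regions with peaks in controls alone were low. The tallest was chr21:13689256-13689355 with 21, 25 and 30 fragments in controls 1, 2 and 3. Next were chr2:43604194-43604300 with 19, 24 and 17 fragments and chr10:16815900-16816012, which lies in the stretch on chromosome 10, with 14, 26 and 19 fragments. The last were chr9:31330551-31330654 with 13, 23 and 16 fragments and chr16:15658716-15658839 with 19, 15 and 14 fragments. When the limma fit took in all 52189 regions found in 3 or more lists and set a missing peak to the lowest height of its list, 5 fragments, 39 chosen regions with peaks in Ezh2i samples alone and 4 with peaks in controls alone passed an adjusted p of 0.05 (0.897% and 0.0920%, against 0.195% and 0.0364% of all regions). This value is below what could be called at such a background, and with missing peaks at the highest pileup that stays uncalled, which was tried after the data were seen, none passed (smallest adjusted p = 0.192 in limma).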

How the data were processed

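ATAC-seq peak lists of 3 Ezh2i samples and 3 controls were analysed. The authors trimmed reads with Trim Galore, aligned them with Bowtie2 to GRCz11 and called peaks with MACS2 (2.1.1.20160309) per sample with no control library, a q-value limit of 0.001 and a background window of 10000 bases. The deposited signal is the pileup (coverage) at the summit, the deposited fold enrichment is a ratio to the background with 1 added to both, and the −log10 p-values and q-values deposited with them score the pileup against it. Backgrounds derived from these columns gave back 99.96% of the −log10 p-values within 0.01. Positions, lengths and other columns are as deposited, counted from 1. A pileup is no read count, so the study's test on read counts was not used.

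The tallest peak of a list gave the height of a region. Quantile-normalized log2 heights were fitted with limma 3.58.1 (lmFit, eBayes) in R 4.3.3, tested on simulated data, without a block. Other steps used matplotlib 3.10.9, scipy 1.17.1, numpy 2.4.6 and pandas 2.3.3 in Python 3.11.15. Regions were named by rule: the 5 of highest background, the 3 tallest, the 5 of smallest p in each direction, the 3 stretches with most regions, the 5 tallest found in one exposure alone, and the 2 on each side of the limit. The regions and rules were chosen with earlier results of these data known. Alternatives were other merging, q-values, limits, scalings, fits with missing peaks, a replicate block and leaving out each sample. Genes and sequences were not used here, because the table of genes given is of another assembly.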

Additional observations from a re-analysis of the deposited data

How the results depend on the processing

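The number of chosen regions was 7534 at a background of 1.5 or more and 1604 at 3 or more, and 4084 to 4373 when any sample was left out, and merging, q-value, scaling to library and all 6 lists kept it within 1.5 times of 4349. The count past an adjusted p of 0.05 (limma) was 43 with a missing peak set to its list's lowest height and 0 under the other 13 alternatives, including the replicate block. The median log2 height difference was 0.0988 with scaled heights (0.0076 when control 3 was left out of that fit, chosen after seeing the data), and -0.0171 to 0.0239 when a sample was left out. The replicate block gave 0.0062 and changed no call. Same-numbered samples showed weak correlations of their deviations, of 0.098, -0.029 and -0.12 over all regions and 0.139, -0.095 and -0.247 in the chosen regions. Differently numbered samples gave -0.174 to 0.191 over all regions and -0.287 to 0.336 in the chosen regions, so the same-numbered values lay within these ranges. Whether the numbers pair the samples cannot be told from these values. The median log2 background difference was 0.0472 to 0.139 when a sample was left out. Regions with peaks in Ezh2i samples alone numbered 29 with lists of equal length, and 19 at a background of 3 or more and 94 when control 3 was left out, both chosen after seeing the data. Leaving out a control can only raise this count. The reverse count was 7 with lists of equal length and 2 at a background of 3 or more. In regions of lower background, lists of equal length gave 382 with peaks in Ezh2i samples alone and 439 in controls alone. Nothing is read from the counts with lists of equal length, as no share over all regions was computed for them.

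Of 17 named regions fitted, 4 changed direction, with adjusted p (limma) of 0.905 or more where they did. chr7:53014954-53015228 moved to 0.184 with fold enrichment and lay between -0.431 and 0.0855 when a sample was left out. chr7:5671-5890 moved to -0.223 with scaled heights and to -0.373 with these without control 3, and lay between -0.153 and 0.175 when a sample was left out. chr7:6387-6655 moved to 0.0818 and chr2:14676090-14676300 to 0.0209 with fold enrichment. The cause was not tested. The median height of 47.3 fragments and the 3 samples per exposure limit the precision at single regions.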
